A study of Mus musculus with 4 samples.

Results

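Lymphoid-primed progenitors are taken here as single bone marrow cells that carry transcripts of both Flt3 and Dntt without a full B-lineage program. A droplet barcode was counted when it held at least 500 genes and 1000 gene UMIs (unique molecular identifiers, each standing for 1 captured transcript) with at most 10% mitochondrial UMIs. Such a barcode was a member when it carried at least 1 UMI of Flt3 and at least 1 UMI of Dntt. The summed UMIs of Cd79a, Cd79b, Vpreb1, Vpreb3, Igll1 and Ebf1 had to stay under 20 per 10000 gene UMIs. This left 332 members of 19758 kept cells in 3 libraries, of which 181 came from the control, 113 from the Mll3-deleted and 38 from the Mll4-deleted library. The members were chosen by their measured counts of Flt3, Dntt and the 6 B genes, so the levels of these genes are description only.

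The study profiled mouse bone marrow cells that were CD45.2 positive and Kit positive, 10 weeks after a transplantation, on the 10x Genomics 3' platform with 13 barcoded surface antibodies and 2 hashtag antibodies. There was 1 library for each of 4 genotypes, namely the control, the deletion of Mll3, that of Mll4 and that of both. The labels used here name neither the alleles, the Cre driver, the strain, the donors nor the hosts, and they do not say what the hashtags mark. The series title names its question as the shared roles of MLL3 and MLL4, a pair of histone H3K4 methyltransferases encoded by Kmt2c and Kmt2d, in stem cell and myeloid identity and in B-cell priming.

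Lymphoid-primed multipotent progenitors lie between the stem cell compartment and the lymphoid lineages, and they keep some myeloid potential while losing the capacity to make red cells and platelets. Flt3 is the receptor tyrosine kinase for Flt3 ligand and marks this step by its surface protein, CD135. Dntt encodes terminal deoxynucleotidyl transferase, which adds bases at the joints of rearranging antigen receptor genes. Satb1 is a chromatin organiser of early lymphoid cells, and Notch1 is the receptor whose signal directs progenitors to the T lineage in the thymus.

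With 1 library for each genotype there is no test between genotypes, and no p-value is given. Levels are CPM, a gene's UMIs summed over the cells named and scaled to a common total of gene UMIs, with exact 95% Poisson intervals. Shares carry exact Clopper-Pearson intervals. All intervals cover counting error only. The deposited matrices held between 6622 and 10001 barcodes a library and between 36413830 and 174795636 gene UMIs. The Mll4-deleted library was the shallowest, and its members had a median of 6331.5 UMIs against 16912 in the control and 16332 in the Mll3-deleted library. The member cells held 3774527, 2375390 and 254047 UMIs in the control, Mll3-deleted and Mll4-deleted libraries. In the Mll4-deleted members 1 count was therefore worth 3.94 CPM, and 3 counts, the floor used for a gene at 0, were worth 11.8 CPM. Pairs of libraries shared between 9 and 24 cell barcodes, and no member shared one with a member of another library.

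The targeted genes were read first. Kmt2c, which encodes MLL3 (chr5:25271798-25498783 of mm10, minus strand), stood at 56.7 CPM (49.4 to 64.8) in control members, 31.6 CPM (24.8 to 39.6) in Mll3-deleted members and 66.9 CPM (39.0 to 107) in Mll4-deleted members. The gene was thus lower in the Mll3-deleted members but far from absent. By hashtag it was 25.9 CPM (17.1 to 37.7) in Hashtag1 members of that library and 49.8 CPM (34.3 to 69.9) in its Hashtag2 members, and the latter interval includes the control level. In all other kept cells of that library Kmt2c stood at 20.8 CPM (19.9 to 21.9) in Hashtag1 and 35.0 CPM (33.5 to 36.5) in Hashtag2 cells. The control held 49.4 CPM (47.8 to 51.0) and 47.0 CPM (45.5 to 48.5) there, so both hashtags were lower than control. Kmt2d, which encodes MLL4 (chr15:98831669-98871204, minus strand), stood at 23.3, 24.4 and 31.5 CPM. A 3' count outside the deleted part checks nothing, and the labels do not place the deletion. Xist, the long RNA of the inactive X chromosome, stood at 1565 CPM in control members and 1477 CPM in Mll3-deleted members, and it had no count in Mll4-deleted members (upper limit 14.5 CPM). In every comparison of the Mll4-deleted library with control, sex and deletion cannot be told apart.

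The marker genes that the rule did not use stood higher in members than in the other cells of the same library. Satb1 (ENSMUSG00000023927, chr17:51736187-51833290, minus strand) stood at 130 CPM (119 to 142) in control members, 165 CPM (149 to 182) in Mll3-deleted members and 134 CPM (92.7 to 187) in Mll4-deleted members. All other kept cells held 18.0, 12.4 and 45.9 CPM of Satb1. A UMI of Satb1 was found in 144 of 181, 90 of 113 and 18 of 38 members. Notch1 (ENSMUSG00000026923, chr2:26457903-26516663, minus strand) stood at 46.6 CPM (39.99 to 54.0), 74.9 CPM (64.3 to 86.8) and 27.6 CPM (11.1 to 56.8), against 12.4, 8.51 and 15.1 CPM in all other kept cells. In Mll4-deleted members Notch1 rested on 7 counts in 6 cells, and its interval reaches below the level of the other cells. Neither marker is private to these cells, since 39.1% of control barcodes rich in neutrophil granule transcripts carried Satb1 and 39.2% carried Notch1.

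UMIs of the defining genes, at least 1 in a cell, also occurred in cells of other lineages. Dntt was found in 4.29%, 4.65% and 0.810% of erythroid barcodes of the 3 libraries, which carried at least 3 of the 4 genes Klf1, Ermap, Epor and Rhd, at median depths of 56582, 54480 and 19263 UMIs. In neutrophil-like barcodes, with Ngp, Camp and Ltf at 100 or more per 10000 UMIs, Dntt was found in 2.61%, 3.59% and 1.02%. By these limits 17 of 181 control members, 9 of 113 Mll3-deleted members and 4 of 38 Mll4-deleted members were themselves erythroid or neutrophil-like. They made up 9.39%, 7.96% and 10.5% of members but 26.1%, 25.5% and 17.8% of the member UMIs. Of these members 6, 0 and 1 had a single Dntt UMI, and the others had more. Values without these barcodes are given below for some of the results that they change, and those limits were set after the data were seen. A Scrublet score would remove a further set of possible doublets, which held 23, 13 and 4 members.

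Cells of this kind made up 2.33% (2.01 to 2.69) of kept cells in the control library, 1.78% (1.47 to 2.14) in the Mll3-deleted library and 0.673% (0.476 to 0.922) in the Mll4-deleted library. The share was highest in the control and lowest in the Mll4-deleted library, and the interval of the Mll4-deleted library lay apart from the other two. Against control the log2 ratio of shares was -0.39 (-0.72 to -0.05) for the Mll3-deleted library and -1.79 (-2.29 to -1.29) for the Mll4-deleted library. Depth moves with this share, because a shallow cell has fewer chances to show both genes. When barcodes were thinned to 5000 UMIs, those with fewer were left out, which were 522 of 7768, 540 of 6341 and 2545 of 5649, so that the Mll4-deleted value covers only its deeper cells. The shares were 0.980%, 0.810% and 0.515%, and the log2 ratio of the Mll4-deleted library became -0.93 (-1.71 to -0.15). At 2000 UMIs, with 145, 199 and 257 barcodes left out, the shares were 0.394%, 0.342% and 0.204%, from 30, 21 and 11 cells, and the ratio of the Mll4-deleted library was -0.95 (-1.94 to 0.05). The gap of the Mll4-deleted library was thus smaller at equal depth, and at 2000 UMIs its interval includes no difference. The ratio of the Mll3-deleted library was -0.27 (-0.80 to 0.26) at 5000 UMIs and -0.20 (-1.01 to 0.60) at 2000 UMIs. Both of these intervals include no difference. The share also depends on the other cells counted with the members. Neutrophil-like barcodes were 1989 of 7768 kept cells in the control, 1226 of 6341 in the Mll3-deleted and 2939 of 5649 in the Mll4-deleted library. Their part in the lower Mll4-deleted share was not tested.

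The hashtags split the Mll4-deleted cells further. The share was 1.96% and 2.61% in the Hashtag1 and Hashtag2 cells of the control library, 1.65% and 1.62% in those of the Mll3-deleted library, and 0.972% and 0.354% in those of the Mll4-deleted library. The Hashtag2 cells of the Mll4-deleted library held 9 members, the fewest of these 6 sets. The log2 ratio of the Mll3-deleted share to control was -0.24 (-0.74 to 0.26) in Hashtag1 cells, which includes no difference. In Hashtag2 cells it was -0.69 (-1.20 to -0.17). Barcodes that met the 4-fold limit for neither hashtag gave 11 members of 309 in the control library, or 3.56%. They gave 16 of 428 (3.74%) in the Mll3-deleted and 2 of 327 (0.612%) in the Mll4-deleted library. The first 2 shares were above those of either hashtag of the same library, with overlapping intervals, and the third lay between them. The part of doublets in these shares was not tested. In the Mll3/4-deleted library, which lies outside the rule, 1 of 7408 kept cells met the same conditions.

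**Figure D1:**
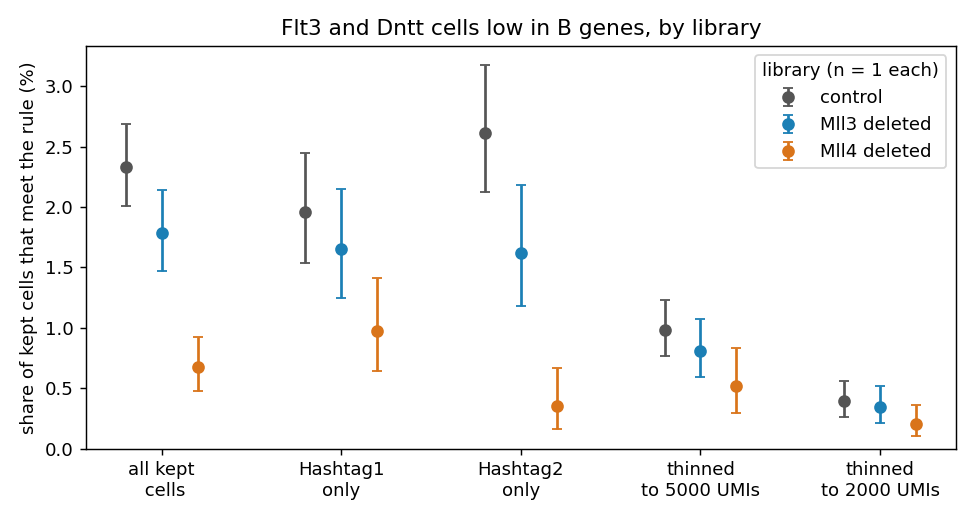
Share of kept cells that met the rule (percent, vertical axis) in the control, Mll3-deleted and Mll4-deleted libraries, for all kept cells, for each hashtag alone and after thinning to 5000 or 2000 UMIs without the shallower barcodes. Points are shares and bars are exact 95% binomial intervals, and the Mll4-deleted share of 0.673% against 2.33% in control narrows to 0.515% against 0.980% at 5000 UMIs.

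A different picture came from the cells that carried Flt3. Among kept cells with a Flt3 UMI and B genes under the limit, Dntt was present in 181 of 925 control cells, 113 of 547 Mll3-deleted cells and 38 of 208 Mll4-deleted cells. These were 19.6% (17.1 to 22.3), 20.7% (17.3 to 24.3) and 18.3% (13.3 to 24.2), and the 3 intervals overlap. At 5000 UMIs the shares were 17.6%, 18.5% and 18.4%. At 2000 UMIs they were 14.9%, 18.4% and 11.7%, and with at least 2 UMIs of each gene 23.6%, 27.6% and 17.8%, so that the Mll4-deleted library was lowest in both, with overlapping intervals. The Mll4-deleted library held 208 such Flt3 cells among 5649 kept, but Flt3 detection moved with depth. Whatever their B genes, 12.2%, 8.93% and 3.70% of kept cells carried a Flt3 UMI in the 3 libraries. After thinning to 2000 UMIs these shares were 2.72% (2.36 to 3.11), 1.92% (1.59 to 2.30) and 1.76% (1.43 to 2.15). At that depth the Mll3-deleted and Mll4-deleted intervals overlap. A lower rate of Dntt among the Flt3 cells of the Mll4-deleted library was not detectable. By hashtag the rate in the Mll4-deleted library was 24.3% (16.7 to 33.4) in Hashtag1 cells and 10.8% (5.08 to 19.6) in Hashtag2 cells. These 2 intervals overlap as well. Overlapping intervals do not show that the rates are equal.

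The nearest neighbours of the members are the cells with Flt3, without Dntt and with B genes under the same limit, 744 in the control, 434 in the Mll3-deleted and 170 in the Mll4-deleted library. Their depth was like that of the members, with medians of 17323, 17213 and 5628.5 UMIs. Members held more of the lymphoid transcription factors and less of the myeloid genes than these neighbours in each of the 3 libraries. Among all genes with at least 20 counts in either set of cells, 0.758% stood at least 2-fold higher and 2% at least 2-fold lower in control members. These shares were 0.941% and 1.95% in the Mll3-deleted library and 1.71% and 8.57% in the Mll4-deleted library. Of 6595 genes with enough counts in all 3 libraries, 4 were past 2-fold higher and 26 past 2-fold lower in every one.

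The lymphoid transcription factors, a list of 15 genes, had a median log2 ratio of members to neighbours of 0.47 in the control, 0.54 in the Mll3-deleted and 0.43 in the Mll4-deleted library, where the median of all genes was -0.02 in each. In the control 11 of 12 factors with enough counts were higher, as were 10 of 12 and 8 of 10 in the other libraries. Satb1 stood at 130 CPM in members and 52.2 CPM in neighbours (log2 ratio 1.30, 1.15 to 1.48). In the Mll3-deleted library Satb1 stood at 165 against 48.6 CPM, and in the Mll4-deleted library at 134 against 69.9 CPM. Mef2c, a factor of lymphoid and myeloid progenitors that is needed for B-cell development, stood at 278 against 183 CPM in the control, 314 against 170 CPM in the Mll3-deleted and 480 against 257 CPM in the Mll4-deleted library. Ikzf1, the zinc finger factor Ikaros that is required for lymphoid fate, stood at 138 against 98.7 CPM, 131 against 93.9 CPM and 173 against 119 CPM. In the control Satb1 was the 1 factor past 2-fold, in the Mll3-deleted library Bach2 and Ets1 joined it with log2 ratios of 1.39 and 1.31, and in the Mll4-deleted library none was past 2-fold.

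Receptors and homing genes gave a mixed picture. Notch1 stood at 46.6 CPM in members and 22.6 CPM in neighbours of the control (log2 ratio 1.01, 0.77 to 1.31) and at 74.9 against 18.1 CPM in the Mll3-deleted library (1.99, 1.73 to 2.37). In the Mll4-deleted library it stood at 27.6 against 15.9 CPM, and the interval of the log2 ratio (-0.71 to 2.14) includes no difference. Il7r, the interleukin-7 receptor chain that sustains lymphoid precursors, was concentrated in few cells. It stood at 14.6 CPM in control members, from 15 cells, against 0.896 CPM in neighbours, and at 27.4 CPM in Mll3-deleted members, from 17 cells, against 0.566 CPM. The Mll4-deleted members held 1 count of Il7r, or 3.94 CPM (0.0997 to 21.9), and this interval includes the control level. Ccr9, a chemokine receptor of thymus-seeding cells, stood at 8.74 CPM against 0.138 CPM in the control and 16.0 CPM against 0.226 CPM in the Mll3-deleted library, from 10 and 5 members.

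The 15 genes with the highest ratio of members to neighbours in the least extreme library included cytokine, receptor and signalling genes. Il12a, the p35 chain of interleukin-12, stood at 70.5, 81.2 and 74.8 CPM in members and at 18.5, 16.5 and 18.7 CPM in neighbours, so that both levels were close in all 3 libraries. Tbxa2r, the thromboxane receptor, stood at 25.4, 26.1 and 27.6 CPM in members and at 5.72, 5.66 and 2.80 CPM in neighbours. Smad7, an inhibitor of transforming growth factor beta signalling, stood at 77.1, 49.7 and 55.1 CPM in members and at 29.3, 14.7 and 20.5 CPM in neighbours. Lck, the kinase bound to T-cell co-receptors, stood at 17.0 and 20.2 CPM in control and Mll3-deleted members against 3.79 and 2.38 CPM, and it gave 1 count in Mll4-deleted members. Arpp21, a gene of lymphoid precursors, stood at 23.3, 16.4 and 11.8 CPM in members and at 1.59, 0.340 and 1.87 CPM in neighbours. Emp1, Ddx4, Sstr2, Cmah, Lax1, Cox6a2, Cnn3, Snn, Il1r1 and Il7r completed the 15.

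Immunoglobulin heavy chain transcripts followed the same direction in the control. Ighm, which gives a sterile transcript before rearrangement, stood at 146 CPM in control members, from 128 of 181 cells, and at 41.1 CPM in neighbours. In the Mll4-deleted library it stood at 134 against 81.1 CPM. In the Mll3-deleted library the neighbours held 303 CPM against 189 CPM in members, and those neighbours also held 830 CPM of Igkc, the kappa light chain of more mature B cells. Cd72, a B-cell coreceptor, stood at 36.3, 28.2 and 15.7 CPM in members, from 90, 41 and 4 cells, and Blnk, an adaptor of pre-B receptor signalling, at 3.44, 10.9 and 3.94 CPM. Pax5, the B-lineage commitment factor, stood at 0.530 CPM in the control and 3.37 CPM in the Mll3-deleted library. Rag1, which cuts antigen receptor genes, stood at 1.85 CPM in control members and 12.6 CPM in Mll3-deleted members, from 5 and 10 cells. It had no count in Mll4-deleted members, where the upper limit of 14.5 CPM lies above both of these levels.

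Myeloid identity genes stood lower in members than in neighbours. The list of 19 genes had a median log2 ratio of -1.05 in the control, -0.75 in the Mll3-deleted and -1.11 in the Mll4-deleted library, and 10, 5 and 10 of the 19 were past 2-fold lower. Mpo, the myeloperoxidase of primary granules, stood at 499.7, 760 and 732 CPM in members and at 1563, 1294 and 1583 CPM in neighbours. Elane, the neutrophil elastase gene, stood at 124, 286 and 118 CPM in members against 979, 640 and 441 CPM. A single cell gave 202 of the 469 control counts and 225 of the 680 Mll3-deleted counts of Elane. Cebpa, a master factor of the granulocyte lineage, stood at 17.8, 19.4 and 63.0 CPM in members and 37.8, 27.1 and 110 CPM in neighbours. The myeloid genes were lower and not absent, with Mpo found in 162 of 181 control members.

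Antigen presentation genes separated members from neighbours further. The MHC class II list had a median log2 ratio of -0.85 in the control, -1.66 in the Mll3-deleted and -5.38 in the Mll4-deleted library, where H2-Oa and Ciita had no count in members and the median with both at their floor was -3.57. Cd74, the invariant chain that guides class II molecules, stood at 28.4, 10.9 and 27.6 CPM in members and at 155, 184 and 2578 CPM in neighbours. H2-Aa, the alpha chain of I-A, stood at 24.9, 5.47 and 23.6 CPM in members against 90.6, 118 and 1310 CPM. The neighbours, and not the members, differed most between libraries, with the highest levels of both genes in the Mll4-deleted library. Stem cell genes were lower in members of the control and Mll3-deleted libraries, with list medians of -0.68 and -0.64 over 19 and 18 genes with enough counts. In the Mll4-deleted library only 6 genes had enough counts, with a median of 0.25. The medians thus cover different genes and do not compare the libraries. The plasmacytoid dendritic cell list had medians of 0.57, 0.49 and 0.16, and its defining gene Siglech gave 1.85, 0.421 and 0 CPM in members.

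**Figure D2:**
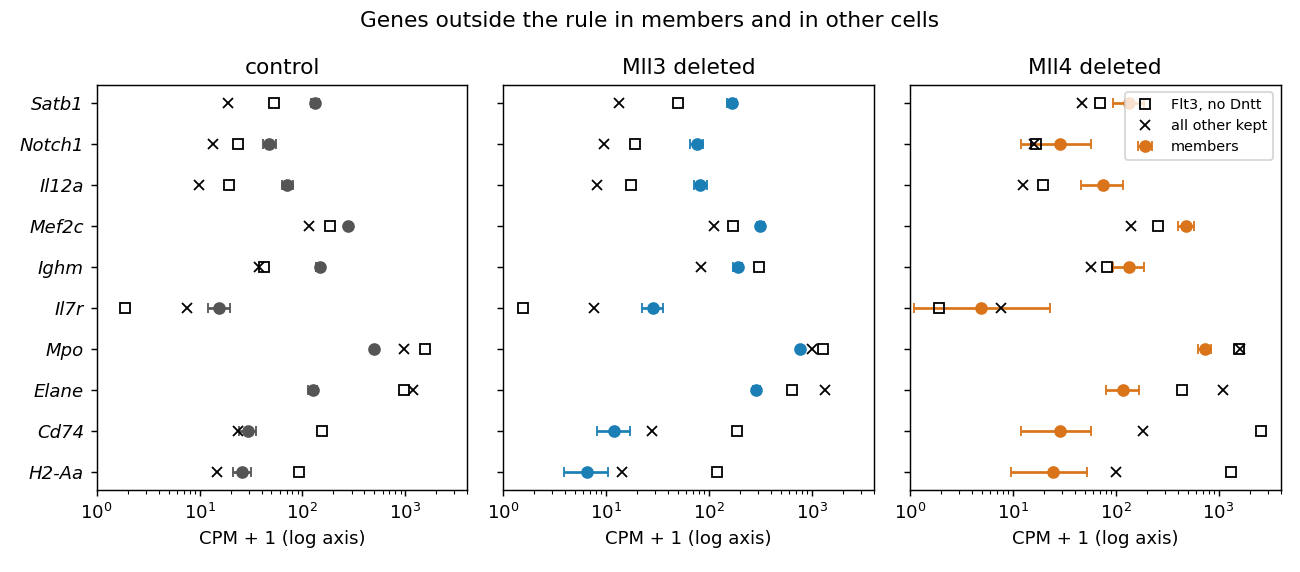
Levels of 10 genes that the rule did not use (CPM plus 1, horizontal log axis) in members (filled circles with exact 95% Poisson intervals), in Flt3 cells without Dntt (open squares) and in all other kept cells (crosses), 1 panel for each library. Satb1, Notch1 and Il12a lie to the right in members, as in the control with 130 against 52.2 CPM for Satb1, and Mpo, Elane, Cd74 and H2-Aa lie to the left of the Flt3 cells without Dntt.

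The surface antibodies were read on the same cells and played no part in the rule. CD135 is still not independent of the rule, which required a transcript of Flt3. CD135, the Flt3 protein, had medians of 6, 9 and 6.5 UMIs in members and 2, 2 and 3 UMIs in all other kept cells of the control, Mll3-deleted and Mll4-deleted libraries. A member exceeded an other cell in 86.3%, 87.3% and 80.9% of pairs. CD34, a sialomucin of early progenitors, separated them more, with medians of 57, 110 and 67.5 UMIs against 8, 10 and 8 UMIs and a higher member in 90.0%, 90.9% and 91.8% of pairs. Sca1, a stem and progenitor antigen, had medians of 40, 58 and 35 UMIs against 9, 12 and 12 UMIs, and members were higher in 80.1%, 79.97% and 80.7% of pairs. CD48, an antigen that appears as progenitors leave the stem cell state, was higher in 76.9%, 77.3% and 83.2% of pairs. CD150, a stem cell and megakaryocyte antigen, was higher in 31.4%, 36.5% and 36.5%. Relative to all other kept cells, the surface pattern was thus CD34, Sca1, CD48 and CD135 high with CD150 low in each library.

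Among the lineage antibodies, the myeloid pair CD16_32 and Gr1 was lower on members in each library, and the others differed by library. CD16_32, the Fc gamma receptor pair of granulocyte and macrophage progenitors, was higher in members in 35.3%, 38.5% and 21.1% of pairs, and Gr1, a neutrophil antigen, in 35.2%, 40.8% and 22.5%. CD11b, a myeloid integrin chain, was higher in 48.6%, 55.0% and 30.02% of pairs. Member medians were close, at 8, 7 and 6.5 UMIs of CD11b and 13, 15 and 12 of CD16_32. The other kept cells differed more, with 7, 5 and 163 UMIs of CD11b and 26, 25 and 103 of CD16_32. Gr1 had medians of 24, 30 and 39.5 UMIs in members and 32, 35 and 178 in the other cells. The lower Mll4-deleted percentages thus went with higher counts on its other cells. B220, an early B-cell antigen, was higher in 47.6%, 54.1% and 52.4% of pairs. CD127, the protein of Il7r, was higher in 49.1%, 57.6% and 45.2%. Members had median CD127 counts of 1, 3 and 3 UMIs against 1, 2 and 4 UMIs in the other cells, so that Mll3-deleted members stood slightly above and Mll4-deleted members slightly below.

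Against the Flt3 cells without Dntt, CD135 was higher in members in 76.5% and 76.1% of pairs in the control and Mll3-deleted libraries and in 57.0% in the Mll4-deleted library. CD41, the platelet integrin chain, was lower in members, which exceeded a neighbour in 24.1%, 38.9% and 22.3% of pairs. CD117, the Kit protein, was also lower in control and Mll3-deleted members, with 35.2% and 36.5% of pairs, and it was even in the Mll4-deleted library, with 51.8%. CD48 gave 55.2% and 64.7% of pairs in the first 2 libraries and 39.2% in the Mll4-deleted library. CD34 was higher in members in 58.1%, 60.6% and 69.7% of pairs, Sca1 in 61.0%, 59.8% and 60.7%, and CD150 in 37.9%, 46.8% and 33.2%. Medians of CD34 were 57, 110 and 67.5 UMIs in members and 48.5, 81.5 and 36.5 UMIs in these neighbours. High CD34 was thus largely shared with the neighbours in the control, and less so in the Mll4-deleted library. Cells are not replicates, and these percentages carry no error between animals.

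**Figure D3:**
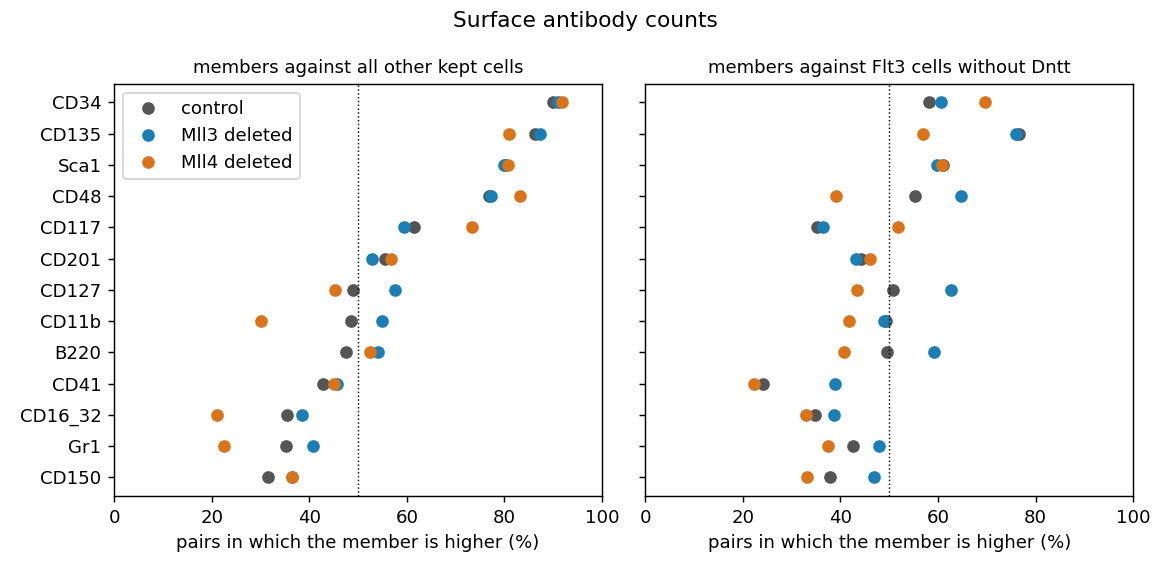
Percent of pairs of 1 member and 1 other cell of the same library in which the member had the higher antibody count (horizontal axis), for 13 antibodies, against all other kept cells (left) and against Flt3 cells without Dntt (right). The dotted line marks 50%, and CD34 lies highest on the left, at 90.0% in the control, with CD135, Sca1 and CD48 next.

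The members differed among themselves along the level of Dntt. In the control 62 members had 1 Dntt UMI, 43 had between 2 and 4 and 76 had 5 or more, at median depths of 16753, 19579 and 15657 UMIs, and the highest cell had 62. The Mll3-deleted library had 31, 25 and 57 members in these bins, and the Mll4-deleted library had 17, 9 and 12. Cells with 5 or more Dntt UMIs held more Satb1, Notch1 and Ighm and less Mpo than cells with 1 UMI in the control and Mll3-deleted libraries. Satb1 stood at 84.0, 77.2 and 217 CPM across the 3 control bins and at 123, 138 and 197 CPM across those of the Mll3-deleted library. Notch1 stood at 27.7, 26.3 and 80.9 CPM and at 34.0, 40.02 and 111 CPM. In the control the larger step lay between the middle and the highest bin for both genes. Ighm stood at 61.8, 92.1 and 268 CPM in the control bins and at 123, 151 and 237 CPM in those of the Mll3-deleted library. Il7r was at 0, 0 and 40.1 CPM in the control, so that all its 55 counts there came from the highest bin.

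Mpo ran the other way, and stem cell genes did so in part. Mpo stood at 949, 331 and 227 CPM across the control bins, at 1451, 836 and 422 CPM in the Mll3-deleted library and at 859, 788 and 477 CPM in the Mll4-deleted library. Hlf, a transcription factor of stem cells, stood at 145, 108 and 86.0 CPM in the control, at 109.6, 78.4 and 36.8 CPM in the Mll3-deleted library and at 124, 57.3 and 112 CPM in the Mll4-deleted library. The summed stem cell list was highest in the first bin of each library. It fell at each step in the Mll3-deleted library, with 380, 288 and 265 CPM. It showed no steady order elsewhere, with 411, 329 and 339 CPM in the control and 575, 229 and 393 CPM in the Mll4-deleted library. Without the erythroid and neutrophil-like barcodes Satb1 was 98.9, 107 and 239 CPM and Mpo was 1183, 464 and 244 CPM in the control. In the Mll3-deleted library Satb1 was then 123, 190 and 262 CPM, in about equal steps, and in the Mll4-deleted library Mpo was 733, 794 and 477 CPM, highest in the middle bin. The CD135 antibody had medians of 4, 6 and 11 UMIs across the control bins, 4, 7 and 13 UMIs in the Mll3-deleted library and 5, 7 and 9 UMIs in the Mll4-deleted library. CD117 had medians of 277.5, 261 and 143.5 UMIs across the control bins. The cells with a single Dntt UMI, which were 34.3%, 27.4% and 44.7% of members, were therefore lowest in CD135 in each library, and highest in Mpo in the control and Mll3-deleted libraries. Free RNA can give single UMIs, and its part in this bin was not tested.

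**Figure D4:**
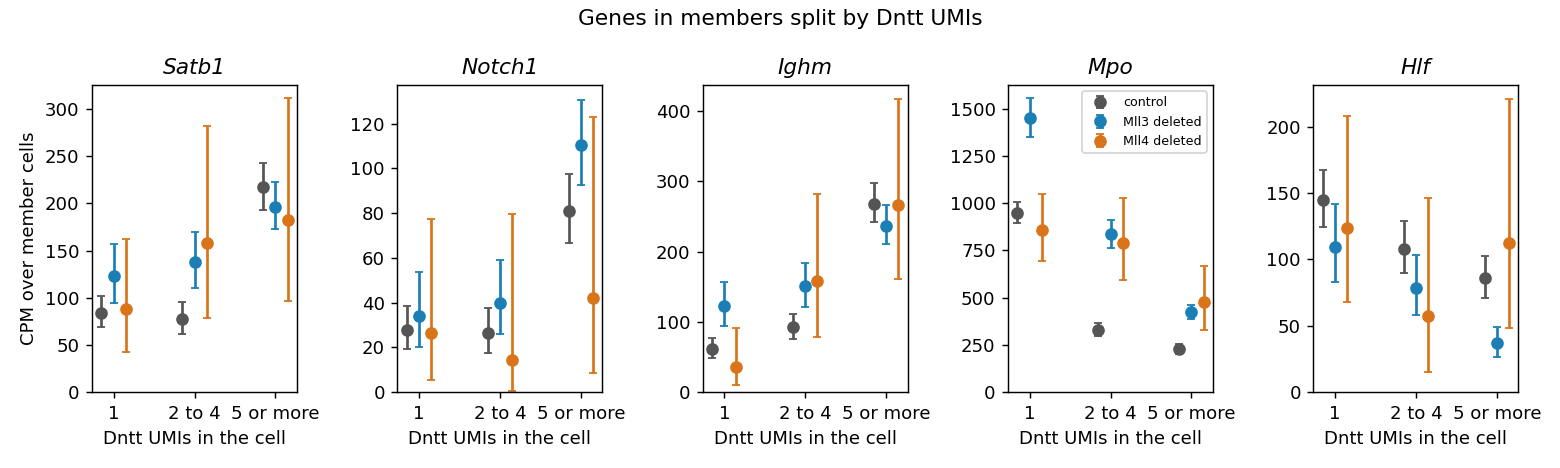
Levels of Satb1, Notch1, Ighm, Mpo and Hlf (CPM over member cells, vertical axes from 0) in members with 1, 2 to 4 and 5 or more Dntt UMIs, by library, with exact 95% Poisson intervals. In the control cells with the most Dntt, Satb1 is highest at 217 CPM and Mpo lowest at 227 CPM.

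The limit on B genes cut through few cells. The 6 B genes were at 0 in 88 control, 42 Mll3-deleted and 32 Mll4-deleted members. The member nearest to the limit had 11.7, 18.6 and 2.52 B gene UMIs per 10000 in the 3 libraries, and the nearest cell outside had 21.7, 37.8 and 68.2. Beyond the limit lay 23 control, 15 Mll3-deleted and 1 Mll4-deleted cells with both Flt3 and Dntt. These cells differed widely from members, with 5.65% of genes past 2-fold higher and 16.5% past 2-fold lower in the control and 4.88% and 19.2% in the Mll3-deleted library.

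Early B-cell genes outside the rule were far higher beyond the limit. Lef1, a factor of proliferating B and T precursors, stood at 320 CPM there and 0.265 CPM in control members. Il7r stood at 189 against 14.6 CPM, Rag1 at 126 against 1.85 CPM, and Ly6d, a surface antigen of B-cell-biased precursors, at 211 against 21.7 CPM. Satb1 went the other way, at 57.5 against 130 CPM. The G2/M list had a median log2 ratio of 1.13 in the control and 1.08 in the Mll3-deleted library, with 17 of 17 genes higher beyond the limit in both. The control cells beyond the limit had medians of 146 UMIs of B220 and 38 of CD127, against 4 and 1 in members, and 5 UMIs of CD34 against 57. By comparison with the excluded cells the members were low in B220 and CD127 and high in CD34.

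Members held fewer G2/M transcripts, which mark cells about to divide, than the other kept cells. Against all other kept cells, where 4.81% of genes were past 2-fold higher and 3.82% past 2-fold lower in the control, all 17 G2/M genes were lower in the members of each library, with list medians of -0.38, -0.31 and -0.71. The percentages in the Mll3-deleted library were 5.81% and 3.1%, and in the Mll4-deleted library 13.3% and 18.7%. The median control member held 4.86 UMIs of these genes per 10000, against 18.2 in the other cells. Against the Flt3 cells without Dntt the same list had medians of 0.25, 0.01 and 0.08, and in the control all 17 genes were higher in members, with a sum of 2308 against 1985 CPM. These sums include the erythroid and neutrophil-like barcodes, which held 26.1% of control member UMIs. Mki67, a gene of cycling cells, stood at 384 CPM in control members and 311 CPM without those barcodes. The neighbours, with such barcodes kept, held 351 CPM. The part of these barcodes in the list's difference was not tested.

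The Mll3-deleted members differed from control members in few genes. Of 9368 genes with at least 20 counts in either library, 0.459% stood at least 2-fold higher and 1.11% at least 2-fold lower, and among 1782 genes with a mean of at least 80 CPM these shares were 0.224% and 0.0561%. Eya1, a transcriptional co-activator and phosphatase, was among the higher genes, and the class II gene H2-Aa and the interleukin-1 receptor Il1r1 were among the lower ones. The lymphoid transcription factors had a median log2 ratio of -0.06, against -0.04 for all genes, and none of the 12 with enough counts was past 2-fold. Several of the clearest differences were as large in all other kept cells of the library, among them Hist1h2ap, Pttg1, Nefh and Rps27rt.

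Eya1 stood at 8.48 CPM (5.80 to 11.97) in control members, 24.0 CPM (18.2 to 31.1) in Mll3-deleted members and 47.2 CPM (24.4 to 82.5) in Mll4-deleted members. The control interval lay below both others. The log2 ratio to control was 1.40 (0.85 to 2.17) for the Mll3-deleted and 2.35 (1.39 to 3.47) for the Mll4-deleted library, where it rested on 12 counts in 8 cells. In all other kept cells the log2 ratios of Eya1 were 0.65 and 0.52. By hashtag it stood at 8.87 and 9.28 CPM in control members and at 24.96 and 36.2 CPM in Mll3-deleted members, so that both hashtags were above both of the control. In the Mll4-deleted library all 12 counts came from Hashtag1 cells. These comparisons share the control library.

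The MHC class II genes were lower in Mll3-deleted members, with a list median of -0.70, all 7 genes with enough counts below control and 2 past 2-fold. H2-Aa stood at 24.9 CPM (20.1 to 30.5), found in 48 of 181 control members, and at 5.47 CPM (2.91 to 9.36), found in 10 of 113 Mll3-deleted members. Its log2 ratio was -2.00 (-3.15 to -1.34) in members and -0.05 in all other kept cells. Cd74 stood at 28.4 against 10.9 CPM, and H2-Ab1, the beta chain of I-A, at 58.0 against 35.4 CPM. In the other kept cells the class II list had a median of -0.11. Mll4-deleted members gave a list median of -0.04, with H2-Aa at 23.6 CPM (8.67 to 51.4), while all other kept cells of that library gave 1.82.

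Il1r1, the receptor for interleukin-1, stood at 30.7 CPM (25.4 to 36.9) in control members and 10.1 CPM (6.47 to 15.03) in Mll3-deleted members, a log2 ratio of -1.51. It was also lower in all other kept cells, with -1.06. Fgl2, a secreted fibrinogen-like protein, stood at 17.2 against 5.47 CPM. Hlf stood at 112 against 64.0 CPM (log2 ratio -0.80, -1.09 to -0.54), with -0.24 in all other kept cells, and the stem cell list as a whole had a median of -0.24. Notch1 was higher in Mll3-deleted members, with a log2 ratio of 0.67 (0.38 to 0.99), and lower in all other kept cells, with -0.49. By hashtag it stood at 108 CPM (88.5 to 129) in Hashtag1 and 61.8 CPM (44.4 to 83.9) in Hashtag2 members of that library, against 54.7 CPM (42.96 to 68.7) and 46.96 CPM (37.6 to 58.0) in the control, so that the Hashtag2 intervals overlap. Satb1 had log2 ratios of 0.33 (0.14 to 0.53) in members and -0.51 in other cells, and its Hashtag2 intervals overlap as well. Both ratios in members stayed under 2-fold.

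Myeloid genes were somewhat higher in Mll3-deleted members, with a list median of 0.39 and 15 of 19 genes above control. Elane had a log2 ratio of 1.20 (1.03 to 1.38), and 0.62 without the erythroid and neutrophil-like barcodes. F13a1, a coagulation factor chain of monocyte progenitors, had 1.38 (0.87 to 2.08), from 13 of 113 cells. Mpeg1, the perforin of macrophages, stood at 8.48 against 21.9 CPM, and its ratio in other kept cells had the opposite sign. Among the lower genes Trbc2, the constant part of the T-cell receptor beta chain, rested on 5 control cells, 1 of which gave 61 of 117 counts, and Olfm4 rested on 2 control cells. Nefh, a neurofilament chain, stood at 19.6 against 0.421 CPM in members and at 22.4 against 0.601 CPM in the other cells. Of the 10 higher genes named by the rule, 8 were past 2-fold in members and 3 in all other kept cells, and of the 10 lower genes 10 and 6 were. Rhd, 1 of the higher genes, had a log2 ratio of -0.13 without the erythroid and neutrophil-like barcodes. It then rested on 2 control counts and 1 Mll3-deleted count. In all other kept cells 0.197% of all genes tested were past 2-fold higher and 0.435% past 2-fold lower.

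The Mll4-deleted members differed from control members in many more genes, of which many rest on few counts. Of 9321 genes, 9.05% stood at least 2-fold higher and 9.75% at least 2-fold lower, which is 844 and 909 genes. With TMM scaling the split was 413 higher and 1303 lower, and the median log2 ratio of all genes moved from 0.11 to -0.13, so directions near 0 carry no weight here. Among 1901 genes with a mean of at least 80 CPM, 5.73% were higher and 2.21% lower. The neutrophil granule genes were higher, as they were in all other kept cells of the library. The lymphoid transcription factors had a median of 0.19, with none of the 12 past 2-fold.

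Neutrophil transcripts led the higher genes. S100a8, an alarmin of granulocytes, stood at 2042 CPM in control and 8542 CPM in Mll4-deleted members, a log2 ratio of 2.06, and it had 2.03 in all other kept cells. Ngp, a granule protein, had 1.83 in members and 1.36 in other cells. The list had a median of 1.81 in members and 1.63 in other cells, with 5 of 6 genes past 2-fold in members. Its summed level in the other kept cells was 59582 CPM in the control and 173404 CPM in the Mll4-deleted library. Free RNA of these abundant genes was not tested. Without the erythroid and neutrophil-like barcodes S100a8 stood at 306 CPM in control members and 1131 CPM in Mll4-deleted members.

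Small ribosomal and histone genes were also higher across the whole library. Rps29, a ribosomal protein of the small subunit, stood at 3240 against 10970 CPM in members (log2 ratio 1.76) and gave 1.55 in other cells. Hist1h2ap, a replication histone, stood at 181 CPM in control, 584 CPM in Mll3-deleted and 933 CPM in Mll4-deleted members, and its ratios were alike in the other cells, with 1.64 and 2.47. These genes were higher in both sets of cells and not in members alone.

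Mecom and Bcl2 stood higher in Mll4-deleted members, while the lists they belong to did not. Mecom, a stem cell transcription factor, stood at 18.0 CPM (14.0 to 22.8) in control, 24.4 CPM (18.5 to 31.6) in Mll3-deleted and 82.7 CPM (51.2 to 126) in Mll4-deleted members, where it was found in 13 of 38 cells. The log2 ratio was 2.14 (1.42 to 2.92) in members and 0.23 in all other kept cells. Bcl2, the founding inhibitor of apoptosis in its family, stood at 127, 119 and 295 CPM, a log2 ratio of 1.21 (0.85 to 1.57) in the Mll4-deleted library and 0.58 in its other cells. Mef2c stood at 480 CPM against 278 CPM in control, under 2-fold. Without the erythroid and neutrophil-like barcodes the ratio of Bcl2 was 0.83, under 2-fold, and that of Mecom 2.13. The survival list had a median of -0.21, with 1 gene past 2-fold higher and 3 lower of 8. The stem cell list had a median of 0.06, and Mecom was its only gene past 2-fold higher among 9. Mecom and Bcl2 were named from fixed lists with these values known. Megakaryocyte genes also stood higher in these members, with a list median of 2.51, 3 of 3 tested genes past 2-fold, and a summed level of 350 CPM against 56.4 CPM in control. Pf4, a platelet chemokine, stood at 173 against 5.03 CPM, and all 44 counts came from 1 cell with a single Dntt UMI. Itga2b, the gene of CD41, stood at 39.4 against 6.09 CPM, with 7 of 10 counts in 1 cell. In all other kept cells the megakaryocyte list had a median of -0.45, and its part in the level of Mecom was not tested.

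Erythroid transcripts summed to 1287, 1399 and 228 CPM in control, Mll3-deleted and Mll4-deleted members, while the median member held 2.42, 1.84 and 2.14 of them per 10000 UMIs. Car1, the erythroid carbonic anhydrase, stood at 621 CPM in control, 706 CPM in Mll3-deleted and 3.94 CPM, a single count, in Mll4-deleted members. Klf1, the main erythroid transcription factor, stood at 35.5 CPM in control members, from 14 cells, and had no count in Mll4-deleted members, which was at least 3.01-fold lower. The list had a median of -3.91, or -1.21 with its 4 genes at 0 set to their floor. The control and Mll3-deleted members included 11 and 7 barcodes that met the erythroid limits, at median depths of 77468 and 75323 UMIs, and the Mll4-deleted members included none. The Mll3-deleted list median was 0.30. Without the erythroid and neutrophil-like barcodes the medians were -0.23 for the Mll3-deleted and 0.094 for the Mll4-deleted library, from the 4 and 3 genes that still had enough counts, so most of the list's difference went with a few deep barcodes. Car1 stood at 25.1 CPM in the remaining control members and had no count in the remaining Mll4-deleted members (upper limit 17.7 CPM).

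Other genes lower in Mll4-deleted members were spread over many control cells. Saysd1 stood at 33.9 CPM in control members, found in 86 of 181 cells, and had no count in Mll4-deleted members, at least 2.87-fold lower. Haghl, a hydrolase-like gene, stood at 31.5 CPM, found in 78 control members, and was at least 2.67-fold lower. Both were also lower in all other kept cells, with log2 ratios of -1.15 and -0.48. Of the 10 lower genes named by the rule, 10 were past 2-fold in members and 5 in all other kept cells, and all 10 higher genes were past 2-fold in both. Without the erythroid and neutrophil-like barcodes some fell under 2-fold, among them Ifitm6 of the higher genes, with 0.13, and Mt1 of the lower ones, with -0.56. In all other kept cells 5.79% of all genes tested were past 2-fold higher and 3.18% past 2-fold lower.

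Other lists lay near the median of all genes in one or both libraries. The lymphoid receptor and homing list had medians of 0.22 and -0.11 in Mll3-deleted and Mll4-deleted members, with none past 2-fold in the first and 1 higher and 3 lower in the second. Ltb, a cytokine of lymphoid tissue formation, stood at 29.9, 18.9 and 11.8 CPM, and Cd27, a co-stimulatory receptor of lymphoid-biased progenitors, at 139, 122 and 173 CPM. The myeloid list of Mll4-deleted members had a median of 0.41, which was -0.11 without the erythroid and neutrophil-like barcodes, so its sign is not settled. The S phase list had medians of -0.01 and 0.47, with 3 of 18 genes past 2-fold higher in the second, among them Mcm6, a subunit of the replicative helicase, at 227, 226 and 520 CPM. The interferon response list had medians of -0.11 and -0.15.

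**Figure D5:**
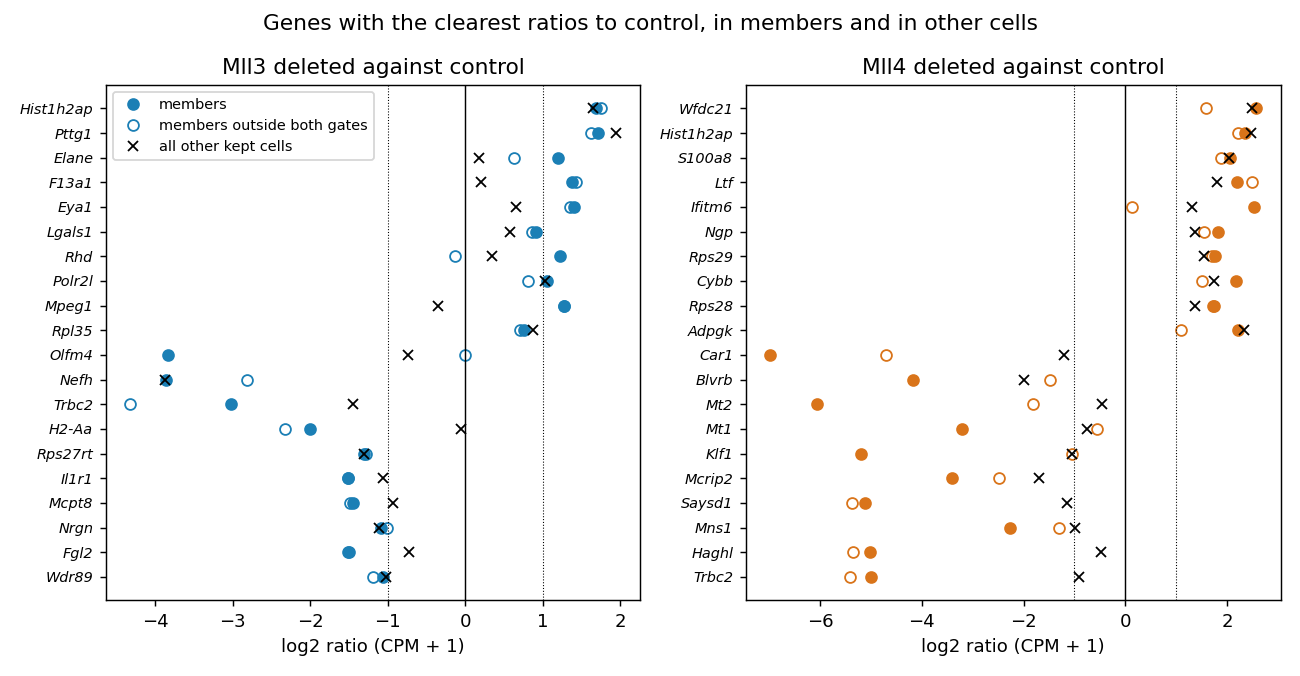
Log2 ratios to control (horizontal axis, CPM plus 1) of the 10 higher and 10 lower genes named by rule for the Mll3-deleted (left) and Mll4-deleted (right) libraries, in members (filled circles), in members outside the erythroid and neutrophil limits (open circles) and in all other kept cells (crosses). Dotted lines mark 2-fold, Eya1 at 1.40 and H2-Aa at -2.00 on the left lie far from their crosses, and points for genes with no count depend on the added 1 CPM.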

How the data were processed

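Each library was 1 sample, as the deposited matrices and labels give it, and CD45.2 positive, Kit positive mouse marrow was assayed with 10x Genomics 3' version 3.1 chemistry and barcoded antibodies. The values are raw UMI counts per gene and per antibody, deposited by the authors as matrices made with Cell Ranger 6.1.2 on mm10, per the submitters' processing notes. Further filters by the authors are not given in the sources used here.

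Barcodes were kept, and members chosen, by the limits given in the report. The members and all gene lists were chosen with earlier results of these data known, and 1 gene of the erythroid list is not reported here. Counts were summed over cells in Python 3.11.15 (numpy 2.4.6, scipy 1.17.1) and divided by the summed gene UMIs to give CPM. Log2 ratios used a pseudocount of 1 CPM. Their intervals are exact conditional binomial intervals of the ratio without pseudocount. A gene was called at 2-fold or more with at least 20 counts in either group of cells. Named genes were the targeted genes, the genes of the rule, list genes, and, for each library against control, the 10 highest and 10 lowest by the interval bound nearer to 0 with at least 50 counts, without mitochondrial, Gm, Rik and Ps genes, Xist or Tsix. Against Flt3 cells without Dntt they were the 15 highest and 10 lowest by the least extreme library. Positions are those of GENCODE M21, in which 32158 of 32285 gene identifiers were found.

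A barcode belonged to a hashtag when its count was at least 4-fold that of the other. Doublets were kept, and an alternative removed the highest Scrublet scores (scanpy 1.11.5) at 0.8% per 1000 barcodes. TMM scaling came from edgeR 4.0.16. The interval code was tested on simulated data. Alternatives were other count minimums, pseudocounts, thinning to 2000 or 5000 UMIs, TMM, stricter rules, and members without erythroid or neutrophil-like barcodes.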

Additional observations from a re-analysis of the deposited data

Results flagged for a closer look

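In the Mll3/4-deleted library, which no comparison above uses, 19.6% (18.7 to 20.5, exact binomial) of kept cells, 1451 of 7408, carried Flt3 and Dntt with the 6 B genes at or above the limit. The control library had 0.296% such cells, the Mll3-deleted library 0.237% and the Mll4-deleted library 0.0177%. It stands out because a signal far above the control level appears in data outside the comparisons. The same library held 1 cell with Flt3 and Dntt under the limit.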

How the results depend on the processing

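Of 479 values computed under alternatives for 70 results, 440 stayed within counting error or, for counts of genes, within 1.5 times, 37 moved and 2 reversed. The log2 ratio of the Mll4-deleted share of members to control, -1.79, was -0.95 with barcodes thinned to 2000 UMIs, -0.93 at 5000 UMIs and -2.47 with at least 2 UMIs of each gene. Counts of genes past 2-fold followed the count minimum. Mll3-deleted members gave 147 genes, and 52 with at least 50 counts, 619 with no minimum, 14 with a pseudocount of 10 CPM and 5 with a mean of at least 80 CPM. Mll4-deleted members gave 1753, and 984, 3928, 584 and 151 in the same order, and 460 with members thinned to 2000 UMIs. With at least 50 counts, members against Flt3 cells without Dntt gave 210 in place of 316 in the control, 141 in place of 310 in the Mll3-deleted and 172 in place of 680 in the Mll4-deleted library. Cells beyond the B limit against members gave 1211 in place of 2068 and 950 in place of 1991. As a share of antibody UMIs, CD135 in the Mll3-deleted library gave 79.5% of pairs in place of 87.3%, Sca1 69.4% in place of 79.97%, and CD117 in the control turned from 61.5% to 48.7%. A stricter minimum leaves fewer genes, and the cause of the other shifts was not tested. Among the list medians, those of the erythroid and neutrophil granule genes in Mll3-deleted members changed sign with doublets removed, and that of the erythroid genes in Mll4-deleted members went from -3.91 to 0.094 without the erythroid and neutrophil-like barcodes. No paired analysis was possible because each genotype is 1 library, and depth limits the Mll4-deleted members, where 1 count is worth 3.94 CPM.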
